A study of Mus musculus with 6 samples.

Results

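Transcription factor genes that set granulosa cell identity or drive steroid hormone synthesis were compared between granulosa cells labelled wild type or Jmjd3 knockout: Wt1, Nr0b1, Nr5a1, Nr5a2, Foxl2, Gata4, Gata6 and Emx2. They are 8 of the 49315 genes counted in each library, and all 8 matched 1 gene identifier each by symbol. The list was chosen from earlier results of these libraries, in which Wt1 and Nr0b1 passed the test of KO against WT, and was filled with related factors. The difference between the groups in these 8 genes is therefore a description, and their p-values support nothing further. Granulosa cells, the somatic cells around the oocyte in an ovarian follicle, were isolated fresh from ovaries of mice aged 8 to 9 weeks. The 3 WT libraries came from animals labelled wild type and the 3 KO libraries from animals labelled Jmjd3 knock out, with the loss limited to granulosa cells according to the series text. Strain was labelled C57BL/6J in both groups. The Cre driver, the deleted exons, the cycle stage and any hormone given were not stated in the labels used here, nor is it said whether libraries came from separate animals or pools, so a p-value here speaks only of library-to-library spread, and that spread may be technical.

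WT1 is a zinc finger protein made in the gonad from its earliest stages and kept in the granulosa cells of small follicles. NR5A1 (steroidogenic factor 1) and NR5A2 (liver receptor homolog 1) are nuclear receptors that bind the same DNA element and switch on genes of steroid synthesis, with GATA4 and GATA6 as partners at many of those genes. NR0B1 (DAX1) has no zinc finger domain of the usual receptor kind and represses NR5A receptors by binding them. FOXL2 keeps granulosa cells from taking on the fate of testicular Sertoli cells, and EMX2 is a homeodomain protein needed to form the urogenital tract.

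A few sequences show what the counts can and cannot resolve. Wt1 makes messages with or without 9 coding bases between the third and the fourth zinc finger, a choice that changes how the protein binds DNA and RNA. In GENCODE M21, 5 of the 7 coding transcripts of Wt1 carry the run (chr2:105170010-105170018, GRCm38, plus strand) and 2 lack it. The counts below sum both forms. In the pair below the capitals mark the 9 bases, and each line shows 30 coding bases on either side.
Wt1 with the run: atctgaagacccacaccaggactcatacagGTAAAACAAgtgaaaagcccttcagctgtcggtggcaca
Wt1 without the run: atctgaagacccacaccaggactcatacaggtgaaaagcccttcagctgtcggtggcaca

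Nr0b1, Nr5a2, Foxl2 and Emx2, 4 of the 8, had an entry in the RefSeq promoter table for GRCm38.p6. The windows of Nr0b1 and Nr5a2 are shown because the first gene was lower in every KO library and the second, whose product NR0B1 binds, was not. Each window holds 239 bases upstream of the gene, at chrX:86191525-86191763 (plus strand) for Nr0b1 and chr1:136960460-136960698 (minus strand, upstream of both RefSeq starts) for Nr5a2. Capitals mark matches, on either strand, to the nuclear receptor half-site (spelled AGGTCA in the search), to the sites that GATA factors bind, or to the promoter element known as the TATA box (spelled TATAAA). Sites for GATA factors were searched in these spellings: AGATAA as the first, then AGATAG as the second, with TGATAA as the third and lastly TGATAG as the fourth.
Nr0b1: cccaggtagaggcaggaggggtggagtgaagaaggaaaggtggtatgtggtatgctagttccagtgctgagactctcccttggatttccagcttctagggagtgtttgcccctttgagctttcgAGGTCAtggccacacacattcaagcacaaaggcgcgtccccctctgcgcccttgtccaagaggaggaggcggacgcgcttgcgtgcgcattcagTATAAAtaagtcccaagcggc
Nr5a2: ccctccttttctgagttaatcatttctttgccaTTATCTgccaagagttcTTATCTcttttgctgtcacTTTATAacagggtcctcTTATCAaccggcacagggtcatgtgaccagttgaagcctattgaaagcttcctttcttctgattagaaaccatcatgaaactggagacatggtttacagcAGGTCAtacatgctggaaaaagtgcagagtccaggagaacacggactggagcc

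The half-site, the core of the element that NR5A receptors bind, occurred 1 time in each window and in 13.5% of the 32851 promoter windows of the same length. Its longer form AAGGTCA, which is in 3.93% of windows and contains the half-site, matched neither. GATA sites numbered 3 in the Nr5a2 window and 0 in that of Nr0b1 (25.9% of all windows hold at least 1). The TATAAA run began at base 219 of the Nr0b1 window and, on the opposite strand, at base 70 of the Nr5a2 window (12% of all windows hold it). A WT1 element, searched as GCGTGGGAG or GCGTGGGTG, was found in neither window and in 0.651% of all. These matches describe letters and say nothing of binding in these cells.

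Library totals ran from 42379018 to 49901493 counts. Kdm6b, the gene of JMJD3, stood at 72.8, 66.3 and 66.2 CPM (normalised read count, of which 1 unit is 42.5 to 51.4 counts of a library) in WT replicates 1 to 3. It was 64.7, 68.6 and 112 CPM for KO replicates 1 to 3 (log2 fold change 0.26, adjusted p = 0.755, edgeR), so the count of the targeted gene did not separate the groups and does not check the labels. The granulosa markers Amh and Fshr were present in all 6 libraries, at 719 to 1096 and 113 to 146 CPM. KO replicate 3 stood apart by its ovulatory response genes: Areg was at 241 CPM there and at 0.40 to 0.98 CPM elsewhere, and the 10-gene sum was 1159 CPM against 147 to 346 CPM. Red blood cell markers summed to 383 to 798 CPM in WT and 830 to 2260 CPM in KO. In all 7 of them the KO libraries lay wholly above WT, as in 1401 of all 18250 genes tested. Of the 7, 1 was called, Slc4a1, at 0.16 to 0.34 CPM in WT and 0.83 to 1.11 CPM in KO (adjusted p = 0.0406, edgeR). Sums overlapped between the groups for stromal fibroblast markers (985 to 1219 CPM in WT, 659 to 1278 CPM in KO), endothelium (133 to 165 and 119 to 242 CPM), immune cells (150 to 192 and 118 to 221 CPM) and smooth muscle (218 to 230 and 192 to 294 CPM). Markers of surface epithelium, oocyte, Sertoli, theca and luteal cells are given beside the genes they moved with or bear on. In RNA of whole preparations, fewer cells of a type and less RNA per cell cannot be told apart.

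Over all 18250 genes tested, 40 passed (0.219%) at an adjusted p under 0.05, with p from edgeR's quasi-likelihood test adjusted by Benjamini-Hochberg. All 8 factors passed the filter on low counts. Of the 8, Wt1 and Nr0b1 were called, both lower in KO, where 17 of all genes (0.0932%) were called lower, and the other 6 were not called. In 5 of the 8 the KO libraries lay wholly above or wholly below the WT libraries, as in 15.6% of all genes tested. Since the list was built on this contrast, nothing is read from these shares. The median log2 fold change (KO minus WT) was 0.09 over the 8 and 0.00 over all genes.

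**Figure D1:**
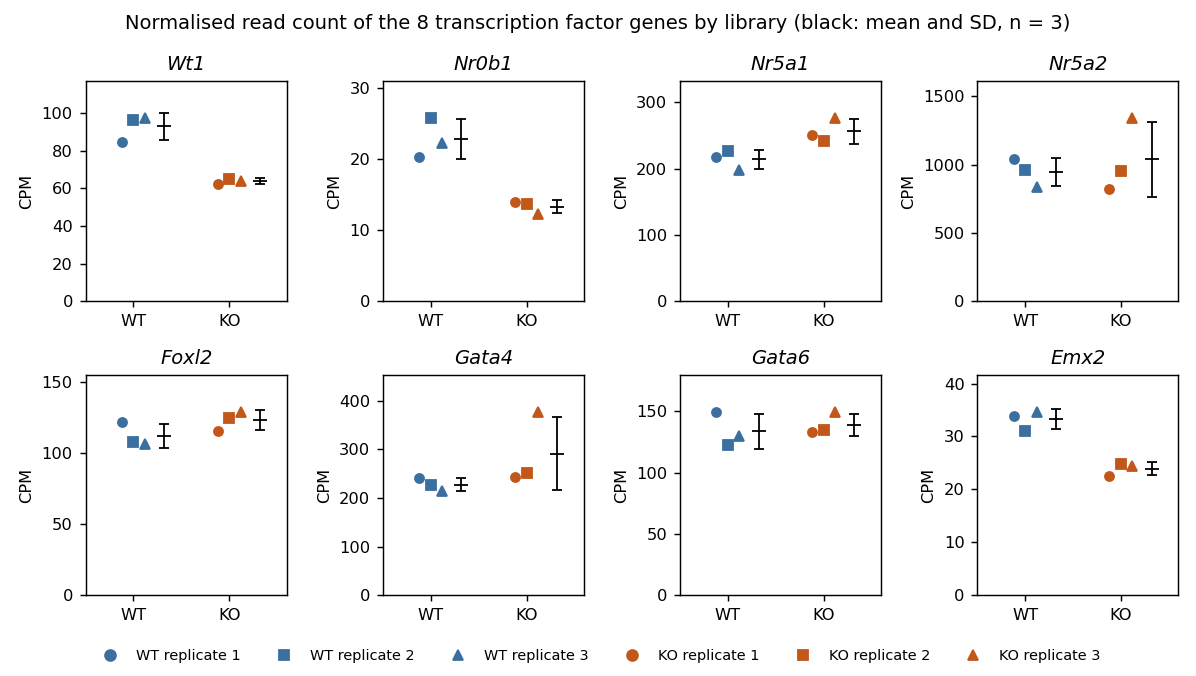
Normalised read count (CPM, vertical axes from 0) of the 8 genes in 3 WT and 3 KO libraries. Points are libraries, and black marks give the mean and SD of each group. The KO points of Wt1, Nr0b1 and Emx2 lie below all WT points, and KO replicate 3 is the highest point for Nr5a1, Nr5a2, Foxl2 and Gata4.

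Wt1 (chromosome 2, 105126529 to 105173616, GRCm38) stood at 85.0, 96.5 and 97.6 CPM for WT replicates 1 to 3, against 62.4, 65.2 and 64.2 CPM for KO replicates 1 to 3. The KO libraries lay within 3 CPM of each other, and the lowest WT library was above all of them. The group means were 93.0 ± 6.99 (SD, n = 3) and 64.0 ± 1.41 CPM. The log2 fold change was -0.54 ± 0.07 (SE, 95% confidence interval -0.70 to -0.38, adjusted p = 0.0246, edgeR). With single libraries left out, its call ended without WT replicate 2 (adjusted p = 0.206, edgeR) or 3 (0.218), or KO replicate 1 (0.0634) or 2 (0.0782). The fold change stayed between -0.60 and -0.51 when any 1 library was left out.

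Nr0b1 (chromosome X, 86191764 to 86195947) was measured at 20.3, 25.8 and 22.2 CPM for WT, against 13.9, 13.7 and 12.3 CPM for KO, from 581 to 1229 counts per library. No KO library reached the lowest WT library. This was the largest difference among the 8 genes, with -0.77 ± 0.11 on the log2 scale (SE, 95% interval -1.01 to -0.54, adjusted p = 0.026, edgeR). With single libraries left out, this call ended without WT replicate 2 (0.143) or 3 (0.222) and without KO replicate 1 (0.0574) or 2 (0.0782). It also ended when genes with a mean under 1 CPM were left out (0.0557). The Nr0b1 value stayed between -0.85 and -0.69 with any 1 library left out.

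Emx2 (chromosome 19, 59458372 to 59465357) stood at 33.9, 31.1 and 34.7 CPM for WT, against 22.5, 24.8 and 24.4 CPM for KO. The groups did not overlap, yet the gene was just outside the threshold (log2 fold change -0.48 ± 0.08 SE, adjusted p = 0.0577, edgeR). Without KO replicate 3 it passed (0.0059), and over all alternatives its adjusted p ran from 0.000386 to 0.367. Its antisense neighbour Emx2os, whose exons share 264 bases with those of Emx2 (8.79% of the exonic length of Emx2), stood at 6.58, 6.99 and 6.90 CPM for WT, against 4.48, 4.88 and 3.72 CPM for KO. The strand setting of the counting is not given in the sources used here, so reads of the shared stretch cannot be told apart and both values are uncertain to that extent.

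Wt1 and Emx2 are also made in the ovarian surface epithelium, a cell layer whose markers were present in these preparations. The 10 markers of that layer summed to 522, 755 and 745 CPM in WT replicates 1 to 3 and to 637, 575 and 418 CPM in KO replicates 1 to 3. Of the 10, 9 had a negative fold change, 0 were called and the median was -0.27. The sums of the groups overlapped: WT replicate 1 lay below KO replicates 1 and 2 in the sum, and above both in Wt1 and in Emx2. In most of the 10 markers WT replicate 1 was likewise below KO replicates 1 and 2. Upk3b was at 97.5 CPM in WT replicate 1 and at 129 and 121 CPM in KO replicates 1 and 2. For Upk1b these values were 57.7, 68.7 and 58.8 CPM. The keratin gene Krt19 was at 62.8 CPM in WT replicate 1 and at 79.1 and 72.1 CPM in KO replicates 1 and 2. Another keratin gene, Krt7, followed the sum only in part. It was at 53.5 CPM in WT replicate 1, above KO replicate 2 (51.2 CPM) and below KO replicate 1 (62.8 CPM). Aldh1a2, an enzyme of retinoic acid synthesis, was the marker whose groups did not overlap (87.9 to 118 CPM in WT, 57.1 to 79.2 CPM in KO, a log2 difference of -0.64 ± 0.15 SE, adjusted p = 0.27, edgeR). In Aldh1a2, unlike in the sum, WT replicate 1 was above KO replicates 1 and 2. Beyond these values the part of surface cells in the levels of Wt1 and Emx2 was not tested. Oocyte markers were also lower in KO beside Wt1, Nr0b1 and Emx2: the 9 summed to 635, 614 and 809 CPM for WT replicates 1 to 3, against 512, 499 and 559 CPM for KO replicates 1 to 3, without overlap. All 9 had a negative fold change, at a median of -0.37, and none was called in edgeR (7 at an unadjusted p under 0.05, as were 1671 of all 18250 genes). None of the 9 was at 0 in every library, and the part of oocyte RNA in the levels of the 3 factors was not tested.

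**Figure D2:**
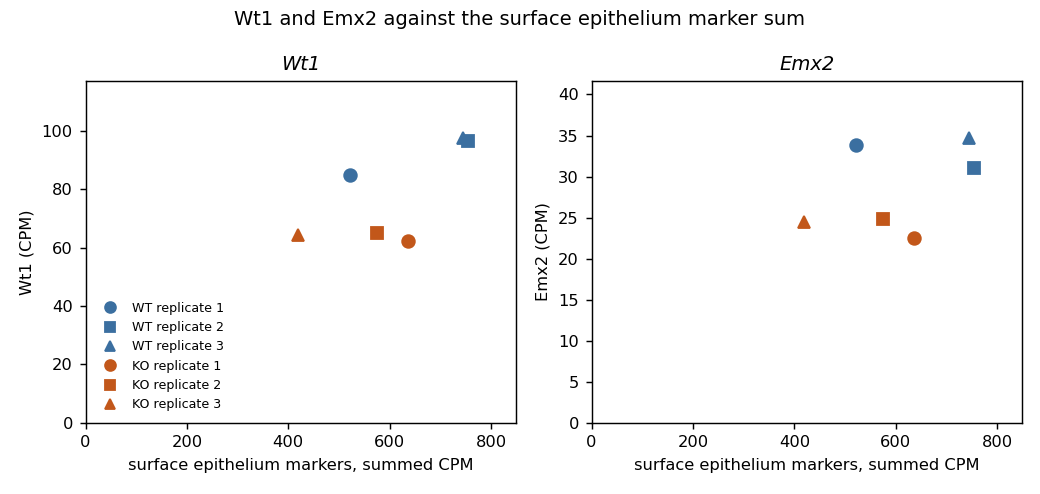
Wt1 (left) and Emx2 (right) in CPM on the vertical axes, against the summed CPM of 10 surface epithelium markers on the horizontal axes, with 1 point per library. WT replicate 1, at 522 CPM of the markers, lies left of KO replicates 1 and 2 (637 and 575 CPM) and above them in both genes.

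Neither NR5A receptor, the activators of the steroidogenic programme, was called. Nr5a1 (chromosome 2, 38692656 to 38714542) stood at 217, 227 and 199 CPM for WT, against 251, 241 and 277 CPM for KO. All 3 KO libraries were above all 3 WT libraries, but the gene did not pass (log2 fold change 0.26 ± 0.08 SE, 95% interval 0.07 to 0.45, adjusted p = 0.405, edgeR). The antisense gene Nr5a1os lies within its span, shares none of its exonic bases and reached at most 0.91 CPM. Nr5a2 (chromosome 1, 136842571 to 136960448), the most abundant of the 8, stood at 1043, 961 and 835 CPM for WT, against 822, 951 and 1344 CPM for KO. Its groups overlapped, with KO replicate 1 lowest and KO replicate 3 highest of the 6 (0.13 ± 0.18 SE, 95% interval -0.28 to 0.55). Without KO replicate 3 the sign of the Nr5a2 value turned, to -0.10 (adjusted p = 0.76, edgeR, and 0.694 to 0.971 over all alternatives).

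FOXL2 and the GATA factors also showed no call. Foxl2 (chromosome 9, 98955607 to 98956847 in the count files) stood at 122, 108 and 106 CPM for WT, against 115, 125 and 129 CPM for KO. WT replicate 1 lay inside the KO range (log2 fold change 0.14 ± 0.08 SE, 95% interval -0.03 to 0.32, adjusted p = 0.622, edgeR). The counted model of Foxl2 held 1241 bases, and GENCODE M21 gives the gene a longer span (98955288 to 98958543), so reads outside the shorter model were not counted. Sertoli cell genes, which rise in granulosa cells when FOXL2 is lost, were mostly at low levels: Sox9 stood at 2.74, 3.25 and 3.03 CPM for WT, against 1.83, 2.00 and 2.20 CPM for KO (adjusted p = 0.312, edgeR), and Dmrt1 did not pass the filter, at 0.07 CPM or less. Of the 7 Sertoli markers tested 5 had a negative fold change and 0 were called, and all 8 summed to 134 to 139 CPM in WT and 132 to 143 CPM in KO, most of it Dhh (77.6 to 99.4 CPM).

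Gata4 (chromosome 14, 63198922 to 63271692) stood at 241, 228 and 214 CPM for WT, against 244, 252 and 378 CPM for KO. KO replicate 1 lay only just above WT replicate 1, and KO replicate 3 was far above the rest. The log2 fold change was 0.36 ± 0.17 (SE, adjusted p = 0.581, edgeR), and 0.12 without KO replicate 3 (adjusted p = 0.529, edgeR, with 0.42 to 0.794 over all alternatives). Gata6 (chromosome 18, 11052510 to 11085635 as counted) stood at 150, 122 and 130 CPM for WT, against 133, 135 and 150 CPM for KO. The KO range lay inside the WT range (log2 fold change 0.05 ± 0.09 SE, 95% interval -0.15 to 0.26, and below 0 without WT replicate 2 or KO replicate 3). GENCODE M21 starts Gata6 at 11052064, so reads outside the shorter counted span were not counted. The antisense gene 1010001N08Rik shares 58 exonic bases with Gata6 (1.82% of its exonic length) and stood at 8.46 to 13.0 CPM.

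**Figure D3:**
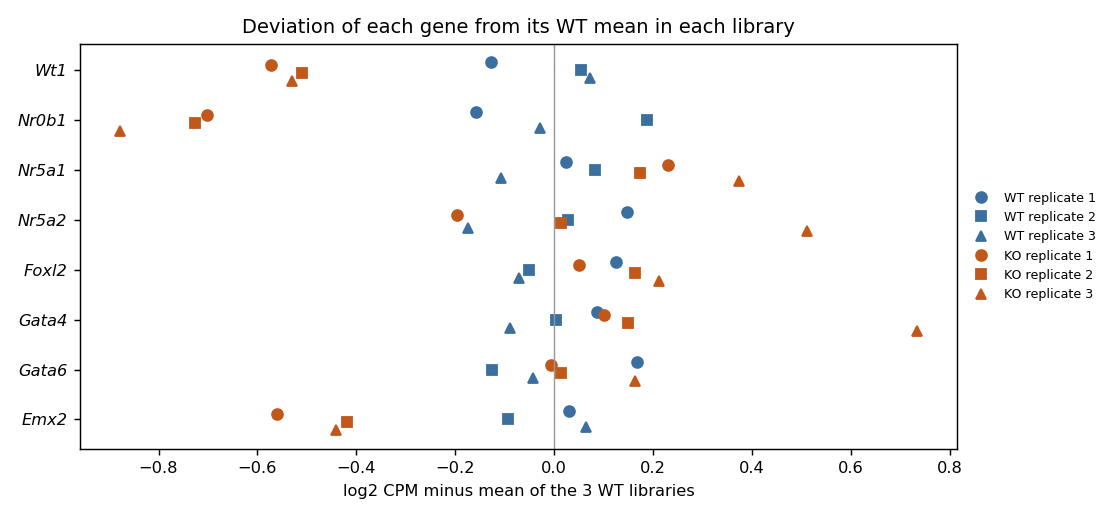
Log2 CPM of each gene minus the mean of its 3 WT libraries (horizontal axis), with 1 point per library. KO replicates 1 to 3 lie at -0.57, -0.51 and -0.53 for Wt1 and at -0.56, -0.42 and -0.44 for Emx2, and KO replicate 3 stands apart for Gata4 (0.73) and Nr5a2 (0.51).

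Expressed against the WT mean on the log2 scale, KO replicate 3 differed most from the other KO libraries in Gata4, at 0.73 against 0.10 and 0.15, and in Nr5a2, at 0.51 against -0.20 and 0.01. It did not differ in that way in Wt1, at -0.53 against -0.57 and -0.51, or in Emx2, at -0.44 against -0.56 and -0.42. In Nr0b1 it was the lowest library, at -0.88 against -0.70 and -0.73. The ovulatory response genes of KO replicate 3 thus stood beside high Gata4 and Nr5a2, while Wt1, Nr0b1 and Emx2 were low in all 3 KO libraries, and the part of the ovulatory response in any of these values was not tested.

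To compare levels between genes, CPM was divided by the exonic length in kilobases. In WT, Nr5a2 was highest at 160 ± 17.8 CPM per kilobase (SD, n = 3), followed by Foxl2 (90.0 ± 6.90), Gata4 (58.2 ± 3.52), Nr5a1 (50.5 ± 3.36) and Gata6 (41.9 ± 4.49). Wt1 (15.0 ± 1.13), Nr0b1 (12.6 ± 1.54) and Emx2 (11.1 ± 0.63) formed a lower tier. Nr5a2 ranked 253 and Emx2 4894 of the 18250 genes tested. Neighbours whose WT libraries overlapped were Nr5a1 with Gata6, Wt1 with Nr0b1, and Nr0b1 with Emx2, so their order is within the spread of libraries. In KO the upper 5 kept this order of means, and the lower 3 were Wt1 (10.3 ± 0.23), Emx2 (7.96 ± 0.42) and Nr0b1 (7.36 ± 0.48). Neighbours whose KO libraries overlapped were Foxl2 with Gata4, Gata4 with Nr5a1, and Emx2 with Nr0b1.

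Ratios of 2 genes within a library do not depend on how libraries are scaled. The log2 ratio of Wt1 to Foxl2 counts was -0.52, -0.16 and -0.12 in WT and -0.89, -0.94 and -1.01 in KO, a mean difference of -0.68. WT replicate 1 lay nearest to the KO libraries, which it did not reach. For the repressor against the receptor that it binds, the log2 ratio of Nr0b1 to Nr5a1 was -3.42, -3.14 and -3.16 in WT and -4.17, -4.14 and -4.49 in KO, a difference of -1.03. Per kilobase, this is 0.219 to 0.267 of Nr0b1 per unit of Nr5a1 in WT and 0.104 to 0.133 in KO. Nr0b1 to Nr5a2 also differed without overlap, with WT at -5.68 to -5.22 and KO at -6.77 to -5.88, and Nr0b1 to Wt1 did so more narrowly, with WT at -2.13 to -1.90 and KO at -2.38 to -2.16. The ratios of Nr5a2 to Nr5a1 and of Gata6 to Gata4 overlapped between the groups. These ratios come from the contrast that chose the genes and carry no test.

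**Figure D4:**
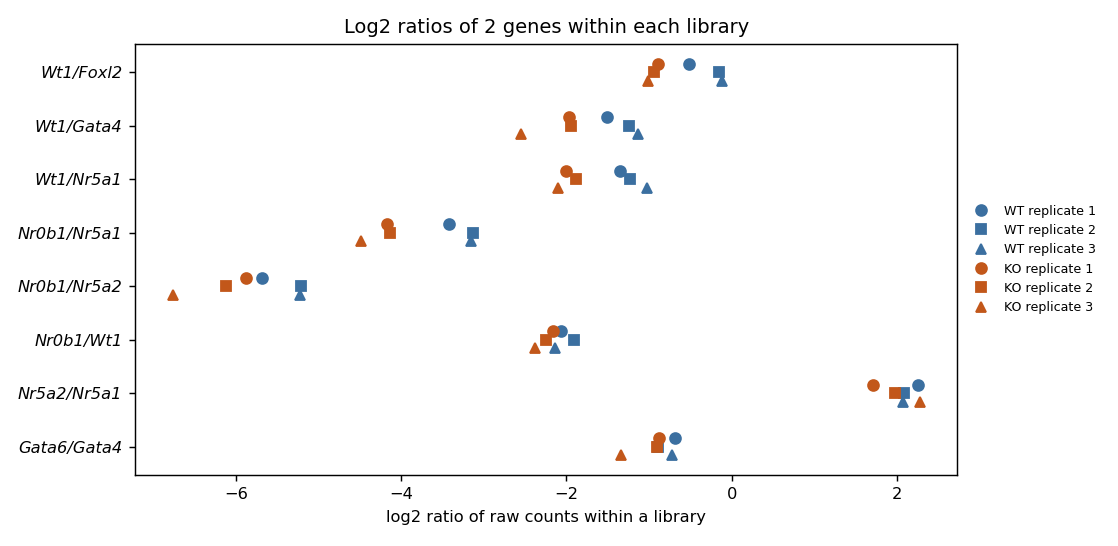
Log2 ratio of the raw counts of 2 genes within each library (horizontal axis), for 8 pairs, with 1 point per library. The KO points of each pair with Wt1 or Nr0b1 on top lie left of the WT points, by a mean of -1.03 for Nr0b1 to Nr5a1, whereas Nr5a2 to Nr5a1 and Gata6 to Gata4 overlap.

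The wider network was described by 80 other genes in 7 lists, which share some genes with each other and were drawn up with earlier results of these libraries known. Of the 78 that could be tested, edgeR called 1, Amhr2, and did not call 77. DESeq2 called 5, limma-voom 3, and edgeR 10 without KO replicate 3, 2 without KO replicate 1 and 0 without WT replicate 2. Amhr2, the receptor of anti-Müllerian hormone and a known target of WT1 in the gonad, stood at 240, 268 and 293 CPM for WT, against 141, 127 and 131 CPM for KO. Every KO library was well below every WT library, and the log2 fold change was -1.01 ± 0.09 (SE, adjusted p = 0.00212, edgeR). Without WT replicate 2 its adjusted p was 0.0542, and over all alternatives it ran from 2.38e-18 to 0.0542. The target lists do not record whether a factor raises or lowers each gene, so signs and medians are not read as its activity. Of the 15 WT1 target genes, Amhr2 alone was called, 9 had a positive fold change and the median was 0.12, and 6 had an unadjusted p under 0.05 (1671 of all 18250 genes did). The signalling gene Tgfb1, next in order of p, stood at 37.4 to 39.8 CPM in WT and 43.7 to 52.0 CPM in KO (adjusted p = 0.345, edgeR). Without KO replicate 3, edgeR also called Tgfb1 (log2 fold change 0.33, adjusted p = 0.0446) and the bone morphogenetic protein gene Bmp7 (1.08, adjusted p = 0.0035), both higher in KO, and Tgfb1 ran from 0.0446 to 0.734 over all alternatives.

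Among 19 tested transcription factor genes of the gonad other than the 8, none was called in edgeR (2 at an unadjusted p under 0.05, near the share of all genes), and 14 of the fold changes were negative, at a median of -0.10 against 0.00 over all genes. Lhx9, a LIM homeodomain factor that acts with WT1 on Nr5a1 in the forming gonad, stood at 30.4, 35.5 and 38.4 CPM for WT, against 23.0, 23.6 and 16.0 CPM for KO. The groups did not overlap, but Lhx9 did not pass (log2 fold change -0.74 ± 0.16 SE, adjusted p = 0.214, edgeR). It passed in DESeq2 (0.00198) and without KO replicate 3 (0.00412), in a range of 0.00198 to 0.684 over all alternatives. Without KO replicate 3 edgeR also called Nr2f2, the gene of the nuclear receptor COUP-TFII, in the other direction (log2 fold change 0.34, adjusted p = 0.0295). Zfpm2, the GATA cofactor FOG2, was at 24.3 to 26.7 CPM in WT and 20.2 to 24.1 CPM in KO (adjusted p = 0.473, edgeR).

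Signals that keep ovarian identity were not called either, in 7 genes with a median of -0.09, and none was called in DESeq2 or limma-voom. In edgeR 2 of the 7 were at an unadjusted p under 0.05, as were 1671 of all 18250 genes. Rspo1, which boosts WNT signalling, stood at 10.4, 12.8 and 13.8 CPM for WT, against 9.56, 10.3 and 7.41 CPM for KO, with KO replicate 2 almost at WT replicate 1 (adjusted p = 0.432, edgeR). The WNT effector gene Lef1 was at 1.32 to 1.88 CPM in WT and 0.85 to 1.18 CPM in KO (adjusted p = 0.396, edgeR). The 20 coregulators of steroidogenic transcription had a median of 0.05, with none called in edgeR (1 at an unadjusted p under 0.05) and none called in DESeq2 or limma-voom. Ppargc1a, a coactivator of nuclear receptors, had the smallest p among them (1.89 to 2.24 CPM in WT, 1.30 to 1.51 CPM in KO, adjusted p = 0.4, edgeR).

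Of the 15 target genes of NR5A receptors that were tested, none was called. The fold change was positive in 14, as in 9294 of all 18250 genes, and the median was 0.44 against 0.00 over all genes. In edgeR 7 had an unadjusted p under 0.05, as did 1671 of all 18250 genes. Star, which brings cholesterol into mitochondria, stood at 387, 340 and 392 CPM for WT, against 1165, 760 and 617 CPM for KO (log2 fold change 1.18 ± 0.23 SE, adjusted p = 0.212, edgeR). Prlr, the prolactin receptor, stood at 506, 497 and 558 CPM for WT, against 911, 810 and 635 CPM for KO (0.59 ± 0.13 SE, adjusted p = 0.19, edgeR). In both genes all KO libraries were above all WT libraries, with KO replicate 1 highest and KO replicate 3 nearest to WT. DESeq2 called 3 of the 15 higher (Star, Prlr and Fdx1), limma-voom called 2 (Star and Prlr), and without KO replicate 3 edgeR called 5, with Cyp11a1, Fdx1 and Fdxr besides those 2, and without KO replicate 1 it called Star. The 6 theca markers summed to 181 to 252 CPM in WT and 286 to 420 CPM in KO, of which Cyp17a1 made up 69.6 to 135 CPM and 174 to 316 CPM. Of the 6, 3 had a positive fold change, the median was 0.08 and none was called. The 2 with an unadjusted p under 0.05 in edgeR, Cyp17a1 and Insl3, stand in the NR5A list themselves, so the higher sum is no separate reading. None of the 6 was at 0 in every library. Luteal markers, which share Star, Prlr and Lhcgr with this list, summed to 1820 to 2226 CPM in WT and 2586 to 5469 CPM in KO. All 7 were positive and none was called. In edgeR 5 of the 7 were at an unadjusted p under 0.05, as were 1671 of all 18250 genes. In 4 of the 7 the KO libraries lay wholly above WT, as in 1401 of all 18250 genes. The part of theca and luteal cells in these levels was not tested.

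Lists of FOXL2 and GATA targets had medians of 0.36 and 0.25, with 0 of 7 and 0 of 8 called in edgeR. Each list held 1 gene at an unadjusted p under 0.05 in edgeR, as were 1671 of all 18250 genes. It was Star, the gene that DESeq2 and limma-voom called in both lists. Fst, the activin antagonist follistatin and a FOXL2 target, stood at 835, 726 and 818 CPM for WT, against 859, 813 and 1375 CPM for KO, with KO replicate 3 alone well above WT (adjusted p = 0.632, edgeR). The gene farthest out in these lists, the prostaglandin synthase gene Ptgs2, stood at 1.03 to 1.11 CPM for WT, against 1.34, 0.87 and 30.3 CPM for KO replicates 1 to 3. The aromatase gene Cyp19a1 was likewise far higher in KO replicate 3 (1113 CPM) than in the other KO libraries (319 and 234 CPM) or in WT (190 to 264 CPM). Both were named after their values were seen. Inha, the inhibin alpha subunit and a target of GATA factors, stood at 7129, 6401 and 6969 CPM for WT, against 8054, 7372 and 10010 CPM for KO. Its groups did not overlap, and it did not pass (0.31 ± 0.14 SE, adjusted p = 0.553, edgeR). Inha stands in the WT1, NR5A and GATA lists alike, so those lists are not separate.

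**Figure D5:**
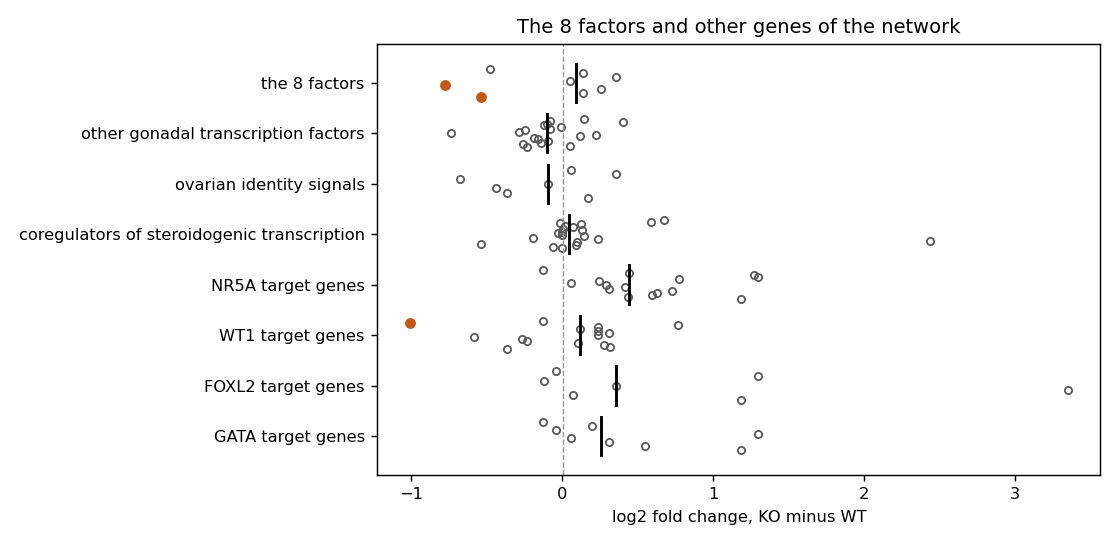
Log2 fold change, KO minus WT (horizontal axis), of the 8 factors and of the tested genes in 7 lists. Circles are genes, filled where called, bars are list medians and the dashed line is the median of all genes; Amhr2 at -1.01 is the filled circle outside the 8 factors, and the NR5A target median lies at 0.44.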

How the data were processed

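RNA of 3 WT and 3 KO granulosa cell libraries was sequenced in paired-end mode. The submitters' processing notes list genome GRCm38, STAR 2.5.2b, Trimmomatic 0.36 and featureCounts of Subread 1.5.2. Their settings, the annotation release and the strand setting are not stated in these sources. The deposited values are raw whole-number counts per gene by the authors, for 49315 genes, of which 49056 had a symbol in GENCODE M21. Groups came from the titles.

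From these counts, edgeR 4.0.16 in R 4.3.3 kept 18250 genes (filterByExpr), scaled by TMM and tested KO against WT with its quasi-likelihood method (robust), adjusting p by Benjamini-Hochberg across the genes kept. CPM use TMM-scaled library sizes (1 CPM is 42.5 to 51.4 counts), and log2 CPM a prior count of 2. The steps were tested on simulated data. They recovered 46.3% of 67 genes changed 1.5-fold, 86.6% of 67 changed 2-fold and 100% of 66 changed 4-fold. Of the calls there, 9.88% were unchanged genes, so smaller changes can be missed and a call can be false. Alternatives used RLE or upper-quartile scaling, DESeq2 1.42.0, limma-voom (limma 3.58.1), other filters, a replicate block and leaving out each library.

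The 8 genes, the lists and the rule for named genes were chosen with earlier results of these data known. The rule names the 8, Kdm6b, called list genes, the 2 list genes of smallest p, the first 2 markers of each marker list and, for Wt1 and Nr0b1, the 5 closest profiles. Krt19, Aldh1a2, Bmp7, Nr2f2 and other genes outside it were named after their values were seen. A gene that the rule names is not reported here.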

Additional observations from a re-analysis of the deposited data

How the results depend on the processing

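With any 1 library left out, edgeR called 8 (without WT replicate 2) to 421 (without KO replicate 3) genes against 40 with all. It called 9, 17 and 26 without WT replicate 3, WT replicate 1 and KO replicate 1. Of the 8 factors, 0 to 3 were called, and of the other list genes 0 to 10. DESeq2 called 220 genes and 5 list genes (Amhr2, Fdx1, Lhx9, Prlr and Star), limma-voom 72 and 3, no filter 199 and 2, and keeping genes with a mean over 1 CPM 21 genes and 1 of the 8 (Wt1). With a replicate block 15 genes and 0 of the 8 were called (Wt1 adjusted p = 0.0875, Nr0b1 0.0812). Deviations of same-numbered libraries from their group means had r over genes of -0.02, 0.07 and -0.03. The labels state no pairing. With 3 libraries a group, these values cannot decide whether same-numbered libraries share a batch, which was not tested. Over the 13 alternatives Wt1 was called in 8, Nr0b1 in 7 and Emx2 in 4 (DESeq2, limma-voom, no filter and without KO replicate 3), each lower in all 13. Reversals of sign were limited to 3 of the 21 genes followed, in uncalled values: with 1 library left out Gata6 ran from -0.018 to 0.14 (negative without WT replicate 2 or KO replicate 3, where it was -0.002), Nr5a2 from -0.095 to 0.27 and Kdm6b from -0.038 to 0.40. The cause of these changes was not tested. Depth gave at least 581 counts for each of the 8 in every library, and how counting error compares with the spread between libraries was not tested.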

Other observations

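The genes whose levels over the 6 libraries ran closest to Wt1 and Nr0b1 were found among 11200 genes. These had a mean of 5 CPM or more, and predicted genes and pseudogenes, known by their symbols, were left out. Likeness was the root mean square difference of log2 CPM, each gene centred on its own mean, and is a description with no test. Closest to Wt1 was Lnx1, a ubiquitin ligase gene (0.04), at 29.9, 34.1 and 33.3 CPM in WT and 22.5, 21.7 and 21.8 CPM in KO. It was followed by Plekhb1 (0.04), the semaphorin receptor gene Plxna2 (0.06), Mylk3 (0.07) and Rab6b (0.08). Closest to Nr0b1 was the magnesium transporter gene Nipal1 (0.09), at 55.4, 59.3 and 52.7 CPM in WT and 32.3, 33.4 and 32.7 CPM in KO. Next were Prr15l (0.12), Emx2os (0.12), Plekha6 (0.13) and Capn6 (0.13). Of these 10 genes Lnx1 and Nipal1 were called in edgeR (adjusted p = 0.026 and 0.00267). All 10 had a negative fold change, from -0.43 in Rab6b to -0.77 in Nipal1, which follows from the way they were picked.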
